A study of Mus musculus with 6 samples.

Results

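Macrophages draw on the amino acid arginine for opposed ends. The inducible nitric oxide synthase Nos2 turns arginine into nitric oxide and citrulline, with tetrahydrobiopterin as a cofactor whose synthesis begins with GTP cyclohydrolase 1 (Gch1), and Ass1 and Asl rebuild arginine from that citrulline. The arginases Arg1 and Arg2 split arginine into urea and ornithine, from which ornithine decarboxylase (Odc1) makes the polyamine putrescine, while Sat1 acetylates spermidine and spermine for breakdown or export. Slc7a2 is a carrier that brings arginine into the cell. These 9 genes were chosen by name from the 54532 genes of the deposited expression table, and all 9 passed the filter on low values. Nos2, Gch1 and Slc7a2 were far higher after LPS + ATP alone than in untreated cells, and Arg2 rose as well. Arg1, Asl, Ass1, Odc1 and Sat1 were not called in that comparison. Odc1 had the largest difference between LPS + ATP cells with and without muscone, which did not pass the test across all genes.

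The libraries came from thioglycollate-elicited peritoneal macrophages of male C57BL/6J mice aged 6 to 8 weeks, with 2 libraries in each of 3 groups. Control cells were left untreated. In the Model group, 500 ng/mL LPS, an outer membrane component of bacteria, was given for 5.5 h and then 2 mM ATP for 0.5 h. The MUS group had identical LPS and ATP, and 50 µM muscone, a macrocyclic ketone, from 0.5 h before the ATP. Per the labels, batch 1 holds replicate 1 of every group and batch 2 holds replicate 2. They do not say whether the replicates came from separate cultures or animals, or whether animals were pooled, so the p-values measure only the spread between these libraries.

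Levels are in FPKM, which relate fragments to gene length and to a per-million scale of the library, and can be compared between genes. This scale was 1.45 and 1.34 times the fragment total in Control and 0.909 to 0.998 times in Model and MUS. Control levels are therefore lower, relative to the other groups, than scaling by fragment totals would give. The libraries held between 15526321 and 17135442 fragments on genes, and between 17406 and 24906 genes were detected, the highest number in Model replicate 1. The 6 macrophage markers summed to between 8279 and 13332 FPKM in every library, most of it from Lyz2 (between 7275 and 12007 FPKM). Of these markers, Csf1r, the receptor for a macrophage growth factor, was called lower than Control in Model (-1.37, limma adjusted p = 0.0289) and MUS (-1.22, 0.0328), and the other 5 were not called. Cd68 was lower in each stimulated library than in either Control library, whereas Itgam was higher in each. Adgre1 and Mertk lay above Control in both MUS libraries and overlapped it in Model, and Lyz2 overlapped Control in both groups. The part of these markers in the results was not tested. The eosinophil genes Prg2 and Epx and the neutrophil genes S100a9, Ly6g and Retnlg were listed at 0 in all 6. S100a8, the neutrophil marker that was detected, lay between 13.5 and 110 FPKM and was called higher in Model vs. Control, and its part in the results was not tested. The sums of T cell, B cell and mast cell markers did not exceed 1.21 FPKM. Control replicate 2 stood apart from Control replicate 1 in genes of the LPS response, with 34.2 against 0.550 FPKM of Il1b, 183 against 8.62 of Tnf and 29.2 against 0.505 of Cxcl10. Results that involve the Control group are therefore given with and without each of its libraries where this changed the call. Changes were tested with limma on log2(FPKM + 1), and a gene was called at an adjusted p (Benjamini-Hochberg) of 0.05 or less with an absolute log2 fold change over 1.

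Of the 9 genes, 4 were called in Model vs. Control, namely Nos2, Slc7a2, Gch1 and Arg2, and all 4 were higher in Model. Of all 9794 genes tested, 9.5% were called higher and 5.56% lower in this comparison. Both Model libraries lay above both Control libraries for 7 of the 9 genes, against 32.6% of all genes. The median log2 fold change of the 9 genes was 1.37, and that of all genes tested was 0.04. These medians were 0.849 and -0.40 with fragment-total scaling, and 0.940 and -0.50 with voom. As these are bulk samples, fewer cells of a type and less RNA per cell cannot be told apart. In MUS vs. Control, 6 of the 9 genes were called higher, with Ass1 and Odc1 in addition, where 11.3% of all genes were called higher and 8.91% lower. Both MUS libraries lay above both Control libraries for 7 members, against 39.6% of all genes, and the median log2 fold change of the members was 2.10. These comparisons share the Control libraries. Without the filter on low values, the calls among the 9 genes were Nos2 alone in Model vs. Control, and Nos2 and Odc1 in MUS vs. Control.

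In MUS vs. Model, 0 members were called by limma, as were 0% of all genes tested in either direction, and 0 members were called with voom. A paired fit with the replicate number as a block called 4 of all genes, none of them a member. At an unadjusted p under 0.05, 1 member was higher in MUS (Odc1) and 0 were lower, where 2.61% of all genes were higher and 5.81% lower at that level. Both MUS libraries lay above both Model libraries for 2 members, Odc1 and Arg2, a share close to the 21.2% of all genes. They lay below them for Arg1, but only by a log2 fold change of -0.13 (limma adjusted p = 0.967). The share of all genes that lay below was not counted, so this is not read as a result. The median log2 fold change of the 9 genes was 0.26 here.

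**Figure D1:**
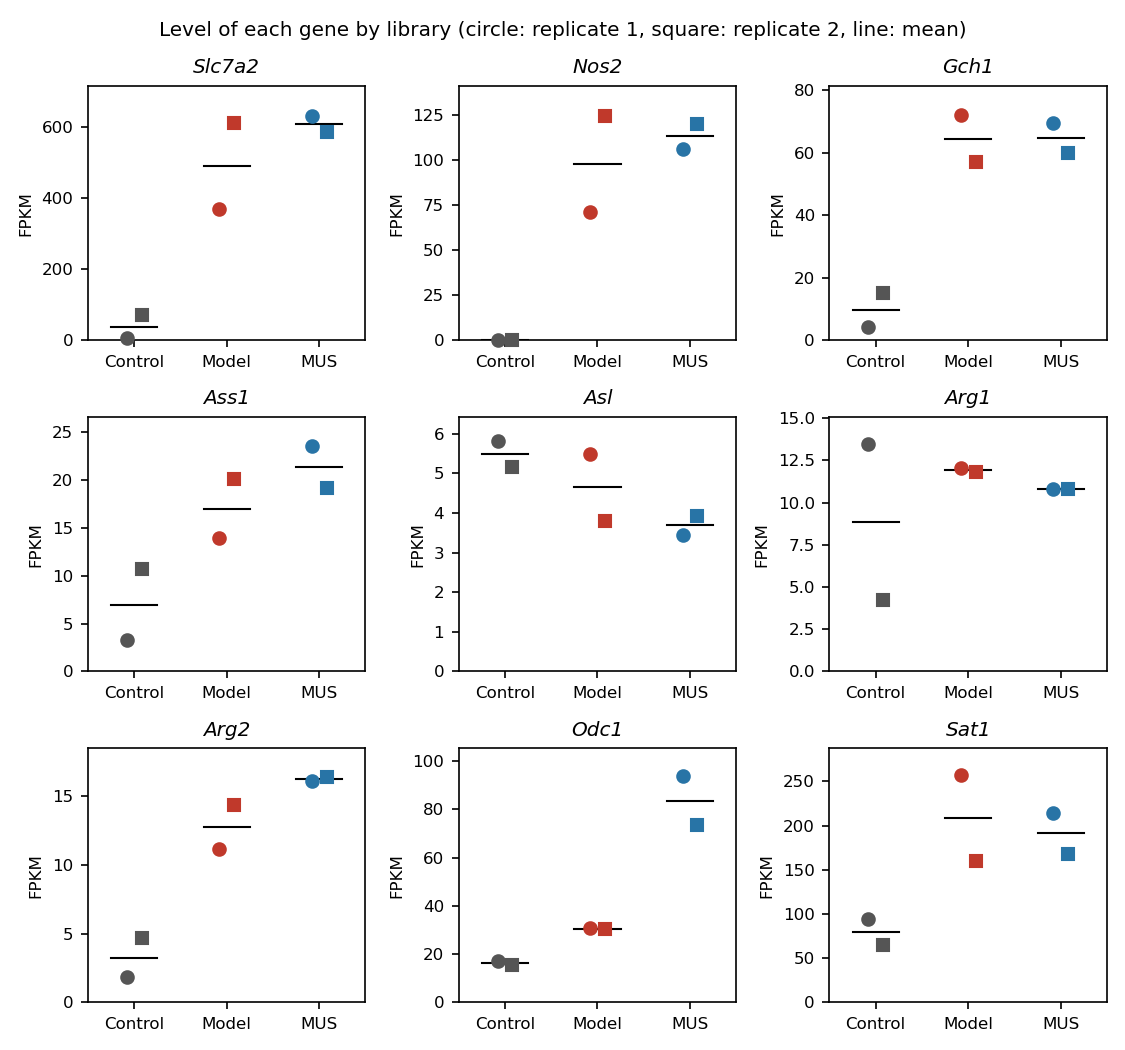
Level in FPKM (vertical axes, from 0) of the 9 genes in Control, Model and MUS, with circles for replicate 1, squares for replicate 2 and a line at the mean of the 2 libraries. Nos2, Slc7a2 and Gch1 are low in both Control libraries and high in the other 4, whereas Odc1 reaches 73.6 and 93.7 FPKM only in the MUS libraries.

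Nos2 (ENSMUSG00000020826, GRCm38 chromosome 11, 78920787 to 78960254, plus strand) was at or near 0 in untreated cells. Control replicate 1 had 0 fragments, which allows up to 0.0297 FPKM at 3 fragments, and Control replicate 2 had 37 fragments or 0.367 FPKM. The Model libraries had 70.9 and 124 FPKM, and the MUS libraries 106 and 120 FPKM. All 4 stimulated libraries thus lay far above Control, and the MUS values fell between the Model values. Relative to Control, its log2 fold change was 6.34 ± 0.34 (SE) in Model (limma adjusted p = 0.000504) and 6.61 in MUS (limma adjusted p = 0.000617). Its size depends on the value added before the logarithm, since it was 8.77 in Model vs. Control when 0.1 was added instead of 1. Between MUS and Model the log2 fold change was 0.26, with a 95% interval from -0.54 to 1.07 (limma adjusted p = 0.889). Within batch 1 this difference was 0.57 and within batch 2 it was -0.05, so the direction was not shared. Nos2 stayed called in both comparisons with Control whichever library was left out, and its limma adjusted p did not exceed 0.0235 under any alternative run.

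The genes whose profile over the 6 libraries came closest to that of Nos2 were Trim30c, Slfn4, Ifi206, Il12b and U90926. Their root mean square difference from Nos2, on the log2(FPKM + 1) scale after centring each gene, lay between 0.258 for Trim30c and 0.607 for U90926. Trim30c had 0.0510 and 1.12 FPKM for Control, 120 and 144 for Model, and 144 and 130 for MUS. As Trim30c was picked for its likeness to Nos2, both genes were low in Control and high in all 4 stimulated libraries. The order among those 4 differed.

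Gch1 (ENSMUSG00000037580, GRCm38 chromosome 14, 47153895 to 47189413, minus strand), whose enzyme limits the supply of tetrahydrobiopterin, had 4.14 and 15.3 FPKM in Control. It reached 71.9 and 57.1 FPKM in Model and 69.6 and 59.9 FPKM in MUS. The Model and MUS libraries covered the same range, and all 4 were above both Control libraries. Model exceeded Control by a log2 fold change of 2.83 ± 0.52 (SE) (limma adjusted p = 0.0136). It was 1.997 without Control replicate 1 and 3.66 without Control replicate 2, and Gch1 was called in both cases. Gch1 was no longer called without Model replicate 1 (limma adjusted p = 0.0828) or without Model replicate 2 (0.0501). MUS exceeded Control by 2.84 (limma adjusted p = 0.0106). The difference of MUS from Model was 0.01, with a 95% interval from -1.21 to 1.23 (limma adjusted p = 0.997). Leaving out MUS replicate 1 or MUS replicate 2 ended the call in MUS vs. Control (limma adjusted p = 0.0957 and 0.0626).

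RefSeq promoter windows on GRCm38.p6 were at hand for 4 of the 9 genes, Gch1, Odc1, Ass1 and Sat1, and that of Gch1 is shown because its level changed most among these in Model vs. Control. The 250 bases before its start (chr14:47189414-47189663, minus strand) read, with the motif matches in capitals:
Gch1: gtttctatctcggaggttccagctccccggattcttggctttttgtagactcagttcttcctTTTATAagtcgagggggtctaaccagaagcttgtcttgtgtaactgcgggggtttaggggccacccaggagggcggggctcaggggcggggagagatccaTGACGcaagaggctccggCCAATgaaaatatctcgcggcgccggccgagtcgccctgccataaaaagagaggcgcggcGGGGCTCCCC
The windows were searched on both strands for the NF-κB motif, the AP-1 motif TGANTCA, the E-box CACGTG, the core TGACG of the cyclic AMP response element, the CCAAT box and the TATA box TATAAA. None of the motifs overlapped another in this window. The Gch1 window held an NF-κB match GGGGCTCCCC on both strands, 10 to 1 bases before the start, where 7.25% of 32851 windows of this length held such a match. It also held TGACG at 88 to 84 and CCAAT at 70 to 66 bases before the start, found in 17.8% and 33.8% of all windows. TATAAA lay on the opposite strand at 188 to 183 bases, and 12.4% of all windows held it. The AP-1 motif, present in 6.75% of all windows, was not among these letters, nor was CACGTG, present in 6.02%. A match is a description of the letters and not a measured binding site.

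Among the other tetrahydrobiopterin genes, Spr, which encodes the enzyme of the last step of synthesis, was lowest in MUS. It had 3.26 and 3.65 FPKM for Control, 2.88 and 2.02 for Model, and 0.448 and 0.973 for MUS, so that no MUS library overlapped another group. Spr was called lower in MUS vs. Control at a log2 fold change of -1.40 (limma adjusted p = 0.0102). It was not called in Model vs. Control (-0.38, limma adjusted p = 0.326). MUS and Model differed by a log2 fold change of -1.02 ± 0.25 (SE), with an unadjusted limma p of 0.00481 and an adjusted p of 0.380. Leaving out MUS replicate 1 ended the call in MUS vs. Control (limma adjusted p = 0.102), as did leaving out the filter on low values (0.0688). Gchfr, the feedback regulator of the Gch1 enzyme, was listed at 0 in 5 of the 6 libraries and had 0.136 FPKM, or 2 fragments, in Control replicate 2. A 0 allows up to between 0.203 and 0.330 FPKM at 3 fragments, so the libraries cannot be told apart for Gchfr.

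Slc7a2 (ENSMUSG00000031596, GRCm38 chromosome 8, 40862396 to 40922308, plus strand) was the most abundant of the 9 genes in the Model and MUS groups. It had 6.04 and 71.0 FPKM for Control, 369 and 613 for Model, and 632 and 585 for MUS. The Control libraries differed 11.8-fold from each other, yet both lay below all 4 stimulated libraries. Against Control the log2 fold change came to 4.40 ± 0.96 (SE) in Model (limma adjusted p = 0.0246) and 4.76 in MUS (limma adjusted p = 0.0150). In Model vs. Control it was 2.73 without Control replicate 1 and 6.08 without Control replicate 2, and Slc7a2 was called both times. It was not called there without any one of the Model or MUS libraries (limma adjusted p from 0.0596 to 0.0944), with only the 2 groups (0.0594) or with quantile normalization (0.0602). In MUS vs. Control it was not called without MUS replicate 1 (limma adjusted p = 0.107) or MUS replicate 2 (0.0783). Its log2 fold change in MUS vs. Model was 0.35, and the 95% interval from -1.92 to 2.63 was wide (limma adjusted p = 0.957). Of the 50-base stretches of Slc7a2 transcripts, 6.42% also occur in other genes, mostly in Gm26584, which overlaps it on the opposite strand and did not exceed 10.5 FPKM.

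Slc7a1, the arginine carrier that most cells use, stayed between 1.65 and 4.71 FPKM in all 6 libraries. The ratio of Slc7a2 to Slc7a1 was 3.66 and 15.1 for Control, 196 and 135 for Model, and 191 and 133 for MUS. A ratio within a library does not depend on how that library was scaled. The Model ratio was 21.9-fold above the Control ratio, while MUS and Model differed 0.979-fold. With 2 libraries against 2, an exact two-sided permutation test cannot give a p under 0.333, which is the value it gave for Model vs. Control. Over the 17 ratio comparisons made, the smallest adjusted p was 0.567.

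Of the arginases, Arg2 was called and Arg1 was not. Arg1 (ENSMUSG00000019987, GRCm38 chromosome 10, 24915221 to 24927484, minus strand), the cytosolic enzyme and a marker of alternative activation, had 13.5 and 4.24 FPKM for Control, 12.1 and 11.8 for Model, and 10.8 and 10.8 for MUS. The widest gap of Arg1 was thus between the untreated libraries, and the stimulated libraries lay between them. Fitted log2 fold changes over Control were 0.57 ± 0.44 (SE) in Model (limma adjusted p = 0.400) and 0.44 in MUS (limma adjusted p = 0.495). The sign depended on 1 library. Arg1 was called higher in Model without Control replicate 1 (1.30, limma adjusted p = 0.0376) and had a log2 fold change of -0.16 without Control replicate 2 (limma adjusted p = 0.693). For MUS against Control, Arg1 was likewise called higher without Control replicate 1 (1.17, limma adjusted p = 0.0415) and was -0.30 without Control replicate 2. That value was also below 0 with fragment-total scaling (-0.0469) and voom (-0.0170). For MUS against Model the log2 fold change was -0.13, with a 95% interval from -1.18 to 0.91 (limma adjusted p = 0.967). The genes with the profile nearest to Arg1 were Gm13123, Rpl38-ps2, Slc9a3r1, Ifitm6 and Gm49376, at a root mean square difference between 0.149 and 0.212. Like Arg1, each of them was lowest in Control replicate 2, which follows from choosing them by profile.

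Arg2 (ENSMUSG00000021125, GRCm38 chromosome 12, 79130777 to 79156301, plus strand), the mitochondrial arginase, rose in both stimulated groups. It had 1.84 and 4.68 FPKM for Control, 11.2 and 14.4 for Model, and 16.1 and 16.4 for MUS. The 3 groups did not overlap, and MUS was the highest. Relative to Control, its log2 fold change was 1.77 ± 0.35 (SE) in Model (limma adjusted p = 0.0175) and 2.10 in MUS (limma adjusted p = 0.00791). In Model vs. Control, Arg2 was not called without Control replicate 1 (1.27, limma adjusted p = 0.0526), Model replicate 1 (0.0634) or Model replicate 2 (0.0668). The MUS vs. Control call of Arg2 was lost without MUS replicate 1 (limma adjusted p = 0.0760) or MUS replicate 2 (0.0559). Between MUS and Model the log2 fold change was 0.34, with a 95% interval from -0.48 to 1.16 (limma adjusted p = 0.855). Arg2 overlaps Vti1b and Gm48780 on the opposite strand, and 21.2% of its 50-base stretches also occur in transcripts of these genes. Whether counting used the strand is not given in the sources used here, so fragments of Arg2 and Vti1b cannot be told apart in that stretch. Vti1b had between 16.6 and 24.7 FPKM with overlapping groups.

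Arg1 made up 88.0% and 47.5% of the summed arginase FPKM for Control, 51.9% and 45.1% for Model, and 40.1% and 39.7% for MUS. Its share was thus lower in both MUS libraries than in any other library. The ratio of Arg1 to Arg2 was 7.34 and 0.905 for Control, 1.0796 and 0.820 for Model, and 0.669 and 0.658 for MUS. The Model and Control ratios overlapped (exact two-sided permutation p = 0.667, adjusted p over the 17 comparisons 0.708). The ratio of Nos2 to Arg1 was 0 and 0.0865 for Control, 5.89 and 10.5 for Model, and 9.84 and 11.1 for MUS. The ratio of Nos2 to Arg2 was 0 and 0.0783, then 6.35 and 8.65, then 6.58 and 7.31 in the same order. Model and MUS overlapped in both ratios, and an exact two-sided permutation test of MUS vs. Model gave p = 0.667 for Nos2 to Arg1 and 1 for Nos2 to Arg2 (adjusted p over the 17 comparisons 0.708 and 1).

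**Figure D2:**
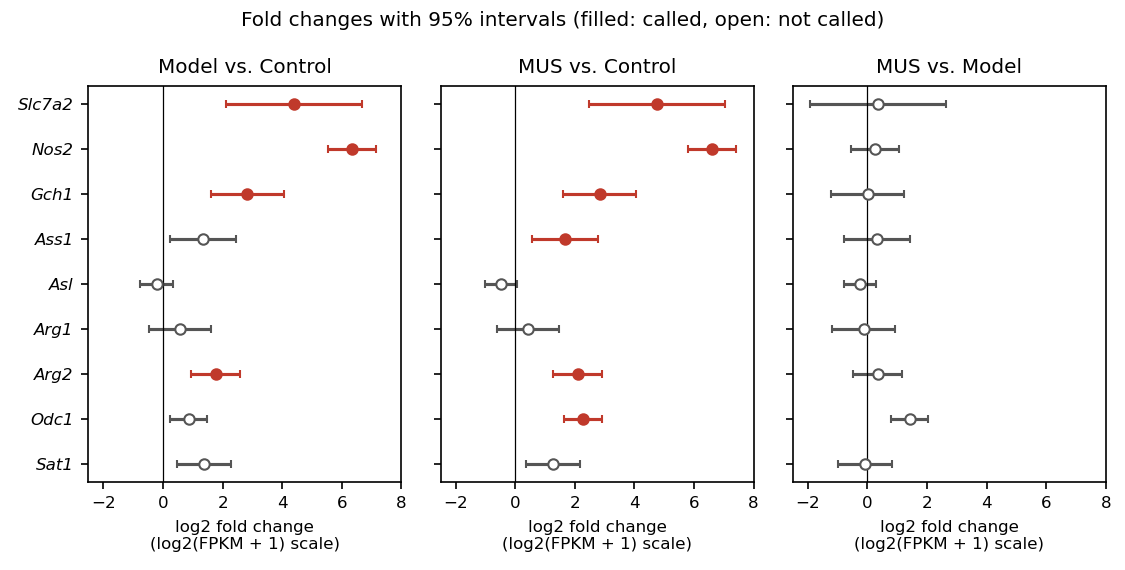
Log2 fold change on the log2(FPKM + 1) scale (horizontal axes) of the 9 genes in the 3 comparisons, with 95% intervals of limma as bars, filled red points for called genes and open points for the others. The intervals of Odc1 lie above 0 in all 3 panels, and in MUS vs. Model those of the other 8 genes include 0.

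Ass1 and Asl, which act in succession in the return of citrulline to arginine, had fitted changes of opposite sign. Ass1 (ENSMUSG00000076441, GRCm38 chromosome 2, 31470207 to 31520672, plus strand) was measured at 3.28 and 10.7 FPKM for Control, 13.9 and 20.1 for Model, and 23.6 and 19.2 for MUS. Both stimulated groups lay above Control and overlapped each other. Ass1 had a log2 fold change of 1.33 ± 0.47 (SE) in Model vs. Control, which was not called (limma adjusted p = 0.0965), and 1.66 in MUS vs. Control, which was called (limma adjusted p = 0.0429). Without Control replicate 2, Ass1 was called in Model at 2.05 (limma adjusted p = 0.00837) and stayed called in MUS vs. Control. The latter call was lost with a pseudocount of 0.1, with fragment-total scaling, with quantile normalization, with voom and with only the 2 groups, and without each of the other 5 libraries, with an adjusted p between 0.0614 without Model replicate 2 and 0.238 without MUS replicate 1. MUS and Model differed by a log2 fold change of 0.33, with a 95% interval from -0.78 to 1.44 (limma adjusted p = 0.902). The fragments of Ass1 are uncertain, as 38.6% of the 50-base stretches of its transcripts are shared with the processed pseudogene Gm5424. Gm5424 had 7.51 and 16.1 FPKM for Control, 17.6 and 20.9 for Model, and 18.7 and 22.4 for MUS, and thus moved with Ass1.

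Asl (ENSMUSG00000025533, GRCm38 chromosome 5, 130011258 to 130029247, minus strand) was the least abundant of the 9 genes in the stimulated groups, with 5.5 and 3.79 FPKM in Model and 3.45 and 3.92 in MUS. Control had 5.83 and 5.16 FPKM. The MUS libraries lay below both Control libraries, and Model overlapped both other groups. Asl had a log2 fold change of -0.22 in Model vs. Control (limma adjusted p = 0.539), -0.47 in MUS vs. Control (0.173) and -0.25 in MUS vs. Model (0.821). The 95% interval in MUS vs. Model ran from -0.80 to 0.29. With voom on the recovered fragments, Asl was called lower in MUS vs. Control (-1.11, limma adjusted p = 0.0206). The ratio of Ass1 to Asl was 0.562 and 2.07 for Control, 2.53 and 5.30 for Model, and 6.85 and 4.89 for MUS. All stimulated libraries lay above Control, by 3.39-fold in Model and 5.35-fold in MUS, each with the smallest exact permutation p that 2 against 2 allows, 0.333 (adjusted p over the 17 comparisons 0.567).

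Of the 9 genes, Odc1 had the largest log2 fold change in MUS vs. Model, although it was not called. Odc1 (ENSMUSG00000011179, GRCm38 chromosome 12, 17544794 to 17551505, plus strand), whose enzyme sets the pace of polyamine synthesis, had 17.0 and 15.6 FPKM in Control. It had 30.8 and 30.3 FPKM in Model and 93.7 and 73.6 FPKM in MUS. The 3 groups were separate, each with a small spread, in the order Control, Model, MUS. The mean of MUS was 83.7 ± 14.2 FPKM (SD, n = 2), 2.74-fold above that of Model at 30.5 ± 0.401 FPKM (SD, n = 2). The log2 fold change in MUS vs. Model was 1.41 ± 0.27 (SE), with a 95% interval from 0.79 to 2.04. The unadjusted limma p was 0.00107, and the adjusted p over all genes was 0.277, so Odc1 was not called. The difference was 1.57 within batch 1 and 1.26 within batch 2. Over all alternatives it stayed between 1.24 and 1.59, and the adjusted p between 0.130 and 1. In MUS vs. Control, Odc1 was called higher (2.28 ± 0.27, limma adjusted p = 0.00308), except without MUS replicate 1 (limma adjusted p = 0.0540). In Model vs. Control the log2 fold change was 0.87 (limma adjusted p = 0.0670), and it was 0.34 with fragment-total scaling. Of the 50-base stretches of Odc1, 24.3% also occur in other genes, chiefly the processed pseudogenes Gm7993, Gm17709 and Gm9115. The highest of these values was 1.81 FPKM, but fragments that match both could have been assigned to either.

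The promoter window of Odc1 is shown because Odc1 had the largest log2 fold change of the 9 genes in MUS vs. Model. On GRCm38.p6 the RefSeq start lies inside the gene as the deposited table gives it, so the last bases of the window (chr12:17544623-17544872, plus strand) belong to that gene:
Odc1: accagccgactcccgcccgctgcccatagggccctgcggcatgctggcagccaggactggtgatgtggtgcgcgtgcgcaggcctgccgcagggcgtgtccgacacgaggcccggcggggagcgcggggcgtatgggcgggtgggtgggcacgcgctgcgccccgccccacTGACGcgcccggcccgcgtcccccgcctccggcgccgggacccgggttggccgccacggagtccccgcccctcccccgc
The only match among the 6 motifs was TGACG, in capitals, 79 to 75 bases before the start, which the Gch1 window also held. In Odc1 this match lies in the part of the window that belongs to the gene as deposited. The Ass1 window had CACGTG at 36 to 31 bases before the start and no other match, and the Sat1 window had none of the 6. The Ass1 match likewise lies inside the gene as deposited.

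Sat1 (ENSMUSG00000025283, GRCm38 chromosome X, 155213132 to 155216449, minus strand), the acetyltransferase of polyamine breakdown, had 93.9 and 64.7 FPKM for Control, 257 and 160 for Model, and 214 and 168 for MUS. Both stimulated groups lay above Control and overlapped each other. Against Control the log2 fold change came to 1.37 ± 0.38 (SE) in Model (limma adjusted p = 0.0510) and 1.27 in MUS (0.0507), both just outside the threshold. With the replicate number as a block in a paired fit, Sat1 was called in both (limma adjusted p = 0.0411 in each). The same held without a trend and with a filter at a mean FPKM of 5. With only the 2 groups compared, Sat1 was called in MUS vs. Control and not in Model vs. Control. Its log2 fold changes were smaller with fragment-total scaling, at 0.83 in Model (limma adjusted p = 0.120) and 0.74 in MUS (0.147), and lowest with quantile normalization, at 0.52 (0.317) and 0.60 (0.224). Its log2 fold change in MUS vs. Model was -0.10, with a 95% interval from -0.9999 to 0.81 (limma adjusted p = 0.970).

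The ratio of Odc1 to Sat1, which compares RNA of a synthesis gene and of a breakdown gene, was 0.181 and 0.242 for Control, 0.120 and 0.189 for Model, and 0.437 and 0.438 for MUS. Both MUS libraries lay above all 4 others, and MUS was 2.91-fold above Model. The exact permutation p was 0.333, the smallest possible (adjusted p over the 17 comparisons 0.567).

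Oaz1 encodes the antizyme that binds ornithine decarboxylase and sends it to degradation. It had 117 and 173 FPKM for Control, 303 and 143 for Model, and 77.5 and 89.1 for MUS. Both MUS libraries lay below all others, and the Model libraries differed by more than the Control libraries. The log2 fold change in MUS vs. Model was -1.31 ± 0.44 (SE), with an unadjusted limma p of 0.0199 and an adjusted p of 0.472. It was -0.77 without Model replicate 1 and -1.85 without Model replicate 2. Oaz1 was not called in MUS vs. Control (limma adjusted p = 0.237), except with fragment-total scaling (0.0413), quantile normalization (0.0271) and voom (0.0256). Of the 50-base stretches of Oaz1, 20.99% also occur in other genes, mostly in its pseudogene Oaz1-ps. Oaz1-ps had 4.65 and 2.73 FPKM in Model and 0.290 and 0.989 in MUS.

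The ratio of Odc1 to Oaz1 was 0.146 and 0.0904 for Control, 0.102 and 0.212 for Model, and 1.21 and 0.826 for MUS. MUS was 6.81-fold above Model and 8.71-fold above Control, and no MUS library came near the others. The difference in MUS vs. Model was 3.57 on the log2 scale within batch 1 and 1.96 within batch 2. The exact permutation p was again 0.333 for both (adjusted p over the 17 comparisons 0.567).

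**Figure D3:**
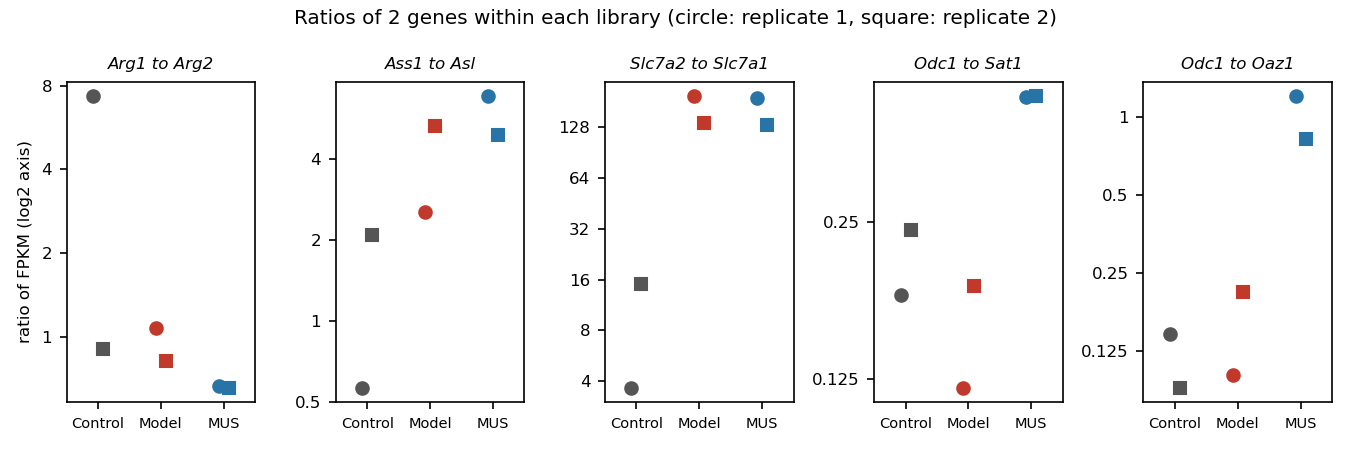
Ratio of the FPKM of 2 genes within each library (vertical axes, log2 scale) by group, with circles for replicate 1 and squares for replicate 2. The ratio of Odc1 to Oaz1 is 1.21 and 0.826 in MUS and at most 0.212 in the other 4 libraries, whereas the ratio of Slc7a2 to Slc7a1 separates Control from the other groups only.

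Of 56 further genes of these pathways, 30 passed the filter on low values. As the filter takes the mean over 6 libraries, it can drop a gene expressed mainly in Control. Paox averaged 1.68 FPKM in Control, 0.215 in Model and 0.129 in MUS. Gamt averaged 1.62, 0.471 and 0.223 in the same order. Neither passed the filter, so the counts below leave them out. In Model vs. Control, 1 of the 30 was called higher (Smox) and 1 lower (Atp13a2), and their median log2 fold change was -0.14. In MUS vs. Control, 1 was called higher (Smox) and 3 lower (Atp13a2, Spr and Nosip), with a median of -0.26. In MUS vs. Model, 0 were called, and 3 had an unadjusted limma p under 0.05, namely Smox above 0 and Spr and Oaz1 below. At that level 2.61% of all genes tested were higher and 5.81% lower, so these counts were near the shares over all genes. Over all genes tested, the shares called higher and lower were 9.5% and 5.56% in Model vs. Control and 11.3% and 8.91% in MUS vs. Control. The counts depended on the scaling, with 3 of the 30 called with fragment-total scaling and 6 with voom in Model vs. Control, and 9 and 11 in MUS vs. Control. The calls among all 9794 genes rose too under these settings. They were 2177 with fragment-total scaling and 2734 with voom in Model vs. Control, and 2669 and 3144 in MUS vs. Control. The 4 arginine uptake genes tested, the 6 of the urea cycle, ornithine and creatine, the 7 of polyamine synthesis and the 3 of hypusination each had 0 calls in the limma fit of the deposited FPKM.

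Smox, the spermine oxidase, had 2.999 and 3.11 FPKM for Control, 7.10 and 8.47 for Model, and 11.4 and 11.9 for MUS. The 3 groups were separate, in the same order as for Odc1. Smox was called in Model vs. Control, at a log2 fold change of 1.11 (limma adjusted p = 0.0142), and in MUS vs. Control, at 1.64 (limma adjusted p = 0.00367). MUS lay 0.53 above Model on this scale, which was not called (limma adjusted p = 0.550). Smox was not called in Model vs. Control without Control replicate 1 (limma adjusted p = 0.0698), nor with fragment-total scaling (0.0608), voom (0.0629) or no filter (0.0662), nor without Model replicate 2, where the log2 fold change was 0.998. The call in MUS vs. Control was lost without MUS replicate 1 (limma adjusted p = 0.0540).

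Atp13a2, which exports polyamines from lysosomes, had the most negative log2 fold change against Control among the 30 further genes tested. It had 36.5 and 22.7 FPKM for Control, 4.63 and 4.68 for Model, and 2.46 and 3.48 for MUS. Both stimulated groups lay well below Control, and the MUS libraries below the Model libraries. Fitted log2 fold changes over Control were -2.40 ± 0.28 (SE) in Model (limma adjusted p = 0.00380) and -2.92 in MUS (0.00184). For MUS against Model the log2 fold change was -0.52 (limma adjusted p = 0.697). Nosip, which binds nitric oxide synthases, had 9.22 and 6.04 FPKM for Control, 4.53 and 4.15 for Model, and 2.53 and 3.94 for MUS. Its log2 fold change in MUS vs. Control was -1.02 (limma adjusted p = 0.0355), a call that was lost without Control replicate 1, Model replicate 1 or either MUS library (limma adjusted p = 0.179, 0.0508, 0.260 and 0.0787), and also with only the 2 groups (0.0517) and without the filter (0.142). Nosip was not called in Model vs. Control (-0.67, limma adjusted p = 0.136), except with fragment-total scaling (-1.15, limma adjusted p = 0.0326) and voom (-1.33, limma adjusted p = 0.0291).

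**Figure D4:**
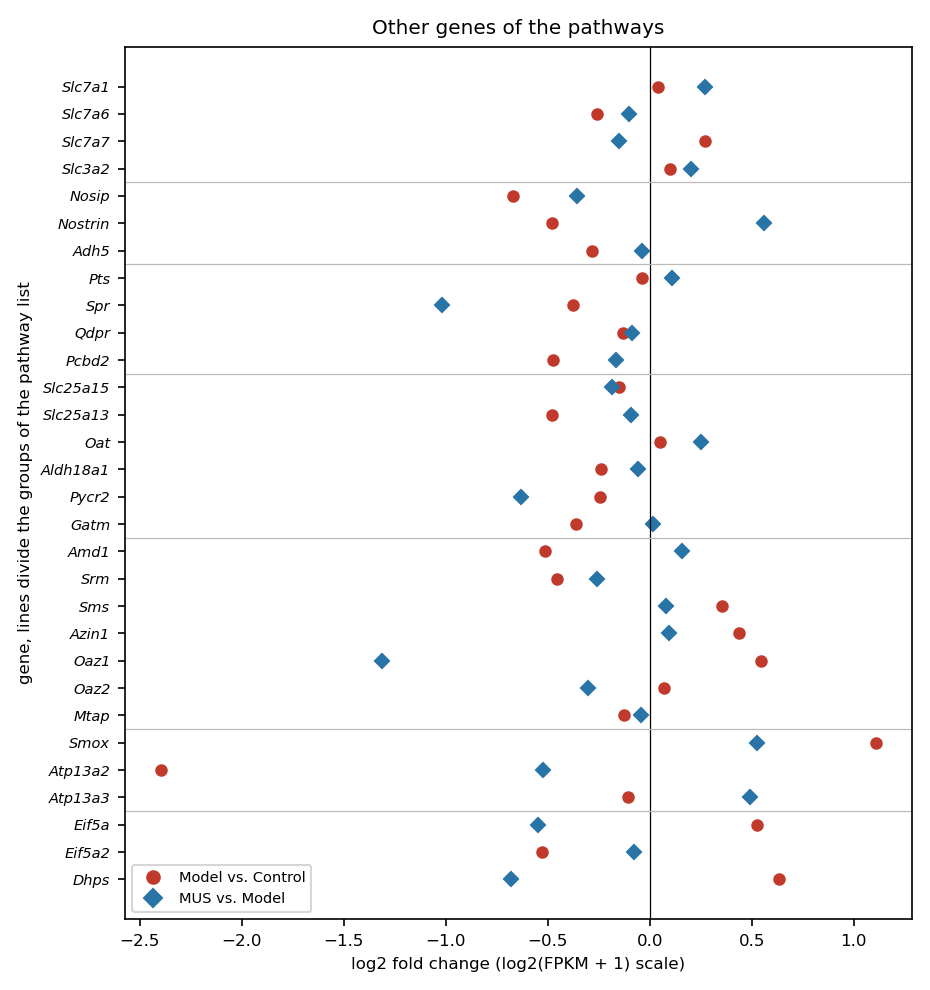
Log2 fold change on the log2(FPKM + 1) scale (horizontal axis) of the 30 further pathway genes tested, with red circles for Model vs. Control and blue diamonds for MUS vs. Model, and grey lines between the groups of the list. Atp13a2 at -2.40 and Smox at 1.11 lie farthest from 0 in Model vs. Control, and Oaz1 at -1.31 and Spr at -1.02 in MUS vs. Model.

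The order of the 9 genes by mean level in Model was Slc7a2, Sat1, Nos2, Gch1, Odc1, Ass1, Arg2, Arg1 and Asl, at 491, 209, 97.6, 64.5, 30.5, 17.0, 12.8, 11.9 and 4.65 FPKM. Nos2 and Gch1, and Arg2 and Arg1, overlapped between libraries in this order, as did Ass1 and Arg2. In Control the order began with Sat1 at 79.3 ± 20.6 FPKM and Slc7a2 at 38.5 ± 46.0 FPKM (SD, n = 2 each), whose libraries overlapped, and ended with Nos2 at 0.183 FPKM. In MUS, Odc1 followed Slc7a2, Sat1 and Nos2 at 83.7 ± 14.2 FPKM, above Gch1 at 64.7 ± 6.87 FPKM (SD, n = 2 each).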

How the data were processed

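RNA-seq libraries of the 3 groups (2 each) were analysed. The deposited values are FPKM, computed by the authors, in 6 library columns, and 0 columns had no sample. The methods name RSEM, while the submitters' processing notes name HISAT2, featureCounts 1.5.0-p3 and GRCm39. The positions in the table are those of GRCm38, since 98.3% of the 54409 gene identifiers shared with GENCODE M21 matched there in position. The product of FPKM and gene length moved in whole steps within each library (tolerance 0.1, 100% of values), which gave the fragments per gene. The implied per-million scale was 1.45 and 1.34 times the fragment total in Control and 0.909 to 0.998 times in Model and MUS. No source used here describes this scaling. The authors' tables of differentially expressed genes, made with DESeq2, hold fold changes and p-values and were not used.

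Genes averaging an FPKM of at least 1, of which there were 9794, were fitted as log2(FPKM + 1) with limma 3.58.1 in R 4.3.3, with 6 libraries, 3 groups and a trend, and tests were two-sided. The code of the fit was run on simulated data with normal noise and planted changes, to check the sign and size it returned. Those data did not mimic the Control scaling, so the run gives no support to the calls. Adding 1 understates the fold change of low genes. Intervals cover 95%, and the limit for 0 fragments is 3 fragments, for counting error only. Ratios within a library were compared by exact permutation. The labels give the replicate number as the batch. Differences between the replicates correlated across genes at 0.12 (Control and Model), 0.14 (Model and MUS) and -0.09 (Control and MUS), and a fit with the number as a block was an alternative. Alternatives also covered the pseudocount, filter, trend, scaling, voom on the recovered fragments, fits of 2 groups, and leaving out each library.

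The 9 genes and all lists were chosen with earlier results of these data known. Named besides the 9 are further pathway genes called in a comparison with Control or at an unadjusted p under 0.05 in MUS vs. Model, ratio partners, the 5 genes nearest to Nos2 and to Arg1, and markers. Pseudogene copies, overlapping genes, Paox and Gamt are named after their values were seen.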

Additional observations from a re-analysis of the deposited data

How the results depend on the processing

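Of 429 values of the 9 genes under alternatives, 369 kept their direction and their side of the threshold, 35 were no longer called, 13 became called and 12 changed sign. Many of these values could not change direction. The filter, trend, block and 2-group alternatives leave the fold change as it was, as does leaving out a library of the group not compared. In Model vs. Control, 1 member was called without the filter on low values, and between 1 and 5 when a library was left out. In MUS vs. Control these counts were 2, and between 1 and 6. Among the other pathway genes, Model vs. Control gave 1 call without the filter, 6 with voom and between 1 and 2 with a library left out, and MUS vs. Control gave 2 without the filter, 9 with fragment-total scaling, 11 with voom and between 1 and 4 with a library left out. Over all genes, Model vs. Control gave 260 calls without the filter, 797 with only the 2 groups, 2734 with voom and between 692 and 2077 with a library left out. MUS vs. Control gave 456 without the filter, 3144 with voom and between 184 and 2398 with a library left out. MUS vs. Model gave 1 with a pseudocount of 0.1, 7 with only the 2 groups, 4 with the replicate block and between 0 and 31 with a library left out. The paired fit with the replicate block gave 5 member calls in Model vs. Control and 7 in MUS vs. Control, with Sat1 added, and changed no other call of a member. Fragment-total scaling and voom shifted the median of all genes to -0.40 and -0.50 in Model vs. Control and to -0.39 and -0.48 in MUS vs. Control, and under fragment-total scaling 643 genes were called higher and 1534 lower in Model, against 930 and 545. Quantile normalization turned Sat1 in MUS vs. Model to 0.0847 and Oaz1 in Model vs. Control to -0.35. Arg1 in MUS vs. Control turned to -0.0469 with fragment-total scaling and -0.0170 with voom. Slc7a1 turned in Model vs. Control to -0.35 with fragment-total scaling, -0.00232 with median-ratio scaling and -0.48 with voom, and in MUS vs. Control to -0.0900 with fragment-total scaling and -0.0860 with voom. With a library left out, the sign changed within these ranges. In MUS vs. Model they were -0.14 to 0.66 for Nos2, -0.0120 to 0.72 for Slc7a2, -0.15 to 0.17 for Gch1, -0.43 to 0.24 for Sat1 and -0.20 to 0.74 for Slc7a1. In Model vs. Control they were -0.16 to 1.30 for Arg1, -0.44 to 0.00340 for Asl and -0.51 to 0.60 for Slc7a1. In MUS vs. Control they were -0.30 to 1.17 for Arg1 and -0.24 to 0.87 for Slc7a1. The cause was not tested. With 2 libraries a group, exact tests cannot pass 0.05, and Nos2 in Control rests on 0 and 37 fragments.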
